A study of Homo sapiens with 6 samples.

Results

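The genes examined here were 10 smooth muscle contractile genes that myofibroblasts also use, namely ACTA2, TAGLN, CNN1, MYL9, TPM1, TPM2, CALD1, ACTG2, MYH11 and LMOD1. They were taken by symbol from the deposited read count table of HFL-1, a human fetal lung fibroblast line, and make up 10 of its 23368 entries. HFL-1 cells received a non-targeting control siRNA (siNTC), siTAZ #1 or siTAZ #2, with Lipofectamine RNAiMAX as the carrier in every group, and total RNA was collected 48 h later and sequenced on an Ion Torrent instrument. Each group held 2 libraries, described as biological replicates, for 6 in all. TAZ, the protein of the WWTR1 gene, is a transcriptional coactivator, and siTAZ #1 and siTAZ #2 are 2 different siRNAs against it. The knockdown was transient and was made in 1 cell line in culture. The question was whether the other contractile genes followed ACTA2, which was known to have moved in opposite directions with the 2 siRNAs when the genes were chosen.

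Myofibroblasts are fibroblasts that have gained contractile bundles of actin filaments and myosin, and α-smooth muscle actin (α-SMA), the product of ACTA2, is their usual marker. Smooth muscle contracts when phosphorylation of the myosin regulatory light chain lets myosin pull on actin, while tropomyosin, calponin and caldesmon lie along the filament and tune this interaction. Many of these genes are activated by serum response factor (SRF), which binds the CArG box in their promoters together with myocardin or its relatives MRTF-A and MRTF-B. TAZ does not bind DNA itself and acts through TEAD factors, which recognise the bases GGAATG.

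The libraries held 15648055 to 32078188 counts on genes with a symbol, and the 10 contractile genes took 0.319% to 0.432% of them. Levels are given as CPM, the counts of a gene per 1000000 counts of its library after TMM scaling. In replicate 2 of siTAZ #1, counts were nearly missing from RANGAP1 on chromosome 22 through X and Y, and these genes took 0.246% of its counts against 3.58% in replicate 1. None of the 10 genes lies there. WWTR1 was at 132 and 131 CPM in the siNTC libraries, at 26.4 and 28.4 CPM with siTAZ #1 and at 46.1 and 43.1 CPM with siTAZ #2, and the siTAZ libraries lay far under the control range. WWTR1 fell to 0.208 of the siNTC level with siTAZ #1 (FDR 0.00062 in edgeR's quasi-likelihood test) and to 0.339 with siTAZ #2 (FDR 0.00068). The 9 fibroblast markers summed to 42749 to 42840 CPM with siNTC, 31168 to 33463 CPM with siTAZ #1 and 32990 to 34744 CPM with siTAZ #2, and COL1A2, COL1A1, FN1, COL3A1 and VIM made up 92.5% to 96.0% of these sums. Single markers moved both ways, with 4 called lower and 1 higher with siTAZ #1 (PDGFRA, log2 fold change 1.72, FDR 0.00084), and 6 lower and 1 higher with siTAZ #2 (THY1, 0.50, FDR 0.010). Of all genes tested, 20.6% were called in either direction with siTAZ #1 and 28.5% with siTAZ #2. The 7 pericyte markers summed to 693 to 704, 844 to 885 and 823 to 851 CPM with siNTC, siTAZ #1 and siTAZ #2. Of these markers, 2 were called higher and 0 lower with siTAZ #1, and 3 higher and 2 lower with siTAZ #2. The 6 striated muscle markers, which were mostly ACTA1, summed to 38.5 to 39.1, 40.5 to 66.3 and 38.2 to 67.5 CPM in the same order. The 6 leukocyte markers, which were mostly CD68, summed to 74.4 to 75.4, 69.3 to 75.9 and 38.2 to 49.0 CPM. Sums of the 7 epithelial and the 5 endothelial markers stayed between 0.774 and 4.83 CPM in every library, and no marker of the 6 lists was at 0 in all libraries. The part of these shifts in the results below was not tested, and in bulk RNA fewer cells of a type and less RNA per cell cannot be told apart.

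ACTA2 rose with siTAZ #1 and fell with siTAZ #2, and no other contractile gene passed the test in both of these directions. With siTAZ #2, 7 of the 10 genes fell, from LMOD1 at 0.217 of the siNTC level to TPM1 at 0.707, and 0 rose by the quasi-likelihood test at an FDR under 0.05. At an unadjusted p under 0.05, and in edgeR's exact test, 1 gene (MYH11) was higher, and DESeq2 called 0 higher. With siTAZ #1, CNN1 and TPM1 fell, ACTA2 rose and the other 7 genes did not pass the test. Among all genes tested, 20.6% passed with siTAZ #1 (10.8% higher, 9.78% lower) and 28.5% with siTAZ #2 (14.1% higher, 14.4% lower). A fit that left out the genes from RANGAP1 on and those of X and Y gave larger shares, 30.6% and 38.7%. In that fit 3 and 8 of the 10 contractile genes were called. Without ACTA2, whose opposite signs were known when the genes were chosen, 2 of the other 9 fell with siTAZ #1 and 6 of the other 9 with siTAZ #2. Over these 9 genes the log2 fold change had its median at -0.07 with siTAZ #1 and -0.62 with siTAZ #2, and that of the 10 genes was -0.06 and -0.71, against 0.02 and 0.01 over all 14053 genes tested. The 10 genes together summed to 4072 and 4419 CPM with siNTC, to 4147 and 4184 CPM with siTAZ #1 and to 3180 and 3169 CPM with siTAZ #2, where both libraries were below the other 4.

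**Figure D1:**
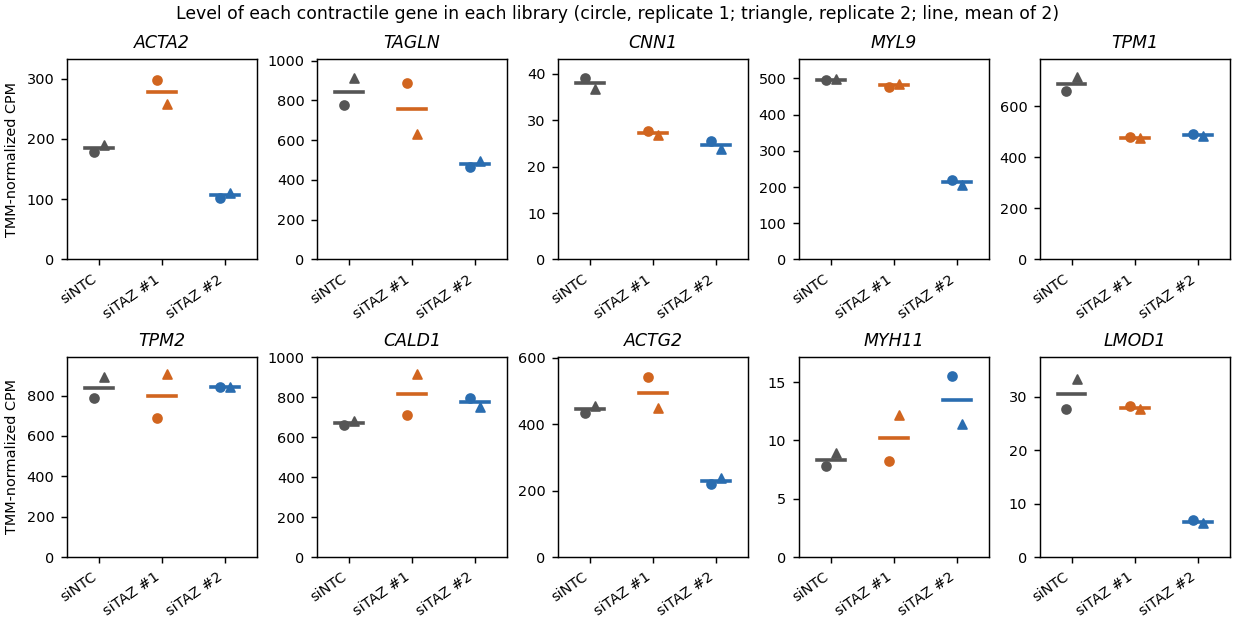
TMM-normalized CPM (y axis, linear from 0) of each contractile gene in the 2 libraries of each group (x axis), with replicate 1 as a circle, replicate 2 as a triangle and their mean as a line. ACTA2 was above siNTC with siTAZ #1 and below it with siTAZ #2, while MYL9, ACTG2 and LMOD1 were lowest in the siTAZ #2 libraries and TPM1 and CNN1 were below siNTC in all 4 siTAZ libraries.

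The groups could be separated without any test for 5 of the 10 genes with siTAZ #1, where both libraries lay outside the range of siNTC for ACTA2, CALD1, CNN1, MYL9 and TPM1, and for 9 of the 10 with siTAZ #2, where TPM2 was the exception. Such separation was common with 2 libraries per group, and 64.3% of all genes tested had it with siTAZ #1 and 71.4% with siTAZ #2. An exact permutation test of 2 against 2 libraries cannot go below a two-sided p of 0.333, so that the tests given here are those of the fit across all genes.

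The promoters of ACTA2, ACTG2 and LMOD1 are shown because, among the genes with a RefSeq window, these 3 differed most between the 2 siRNAs. RefSeq windows (GRCh38.p14) were found for 7 of the 10 genes (not for TAGLN, MYL9 and MYH11), 12 windows in all, and each of the 12 was matched without mismatch to GRCh37. The 250 bases before each start were searched on both strands for the CArG box (CC, a run of 6 A or T, GG), for the same box with 1 mismatch within the run, and for the TEAD core GGAATG or its reverse complement CATTCC. No match overlapped another. Bases 190 to 61 before the start are printed 5′ to 3′, with CArG boxes, CArG boxes with 1 mismatch and GGAATG in capitals.
ACTA2, chr10:90712591-90712720, minus strand of GRCh37, second of 2 starts: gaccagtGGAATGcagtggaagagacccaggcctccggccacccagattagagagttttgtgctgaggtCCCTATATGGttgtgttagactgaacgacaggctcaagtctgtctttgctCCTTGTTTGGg
ACTG2, chr2:74119945-74120074, plus strand: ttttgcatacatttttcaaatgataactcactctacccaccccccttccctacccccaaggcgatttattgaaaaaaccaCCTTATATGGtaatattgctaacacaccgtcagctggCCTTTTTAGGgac
LMOD1, chr1:201915737-201915866, minus strand: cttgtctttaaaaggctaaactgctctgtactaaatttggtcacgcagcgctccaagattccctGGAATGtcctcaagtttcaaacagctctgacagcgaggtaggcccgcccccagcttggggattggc
The ACTA2 stretch lies within ACTA2 and STAMBPL1 in introns, the ACTG2 stretch within ACTG2 with 4 bases in an annotated exon, and the LMOD1 stretch in no annotated gene. ACTG2 held 2 CArG boxes, CCTTATATGG starting 110 bases before the start and CCTTTTTAGG starting 73 bases before it. ACTA2 held the boxes CCCTATATGG and CCTTGTTTGG, each with 1 mismatch, starting 121 and 71 bases before the start, and GGAATG at 183 bases. LMOD1 held GGAATG at 126 bases and no box of either kind in this window. Of the other genes with windows, CALD1 held a box with 1 mismatch in 1 of its windows and the TEAD core in 2, and CNN1, TPM1 and TPM2 held none of the motifs. A CArG box was thus found in 1 of the 12 windows, a box with at most 1 mismatch in 3 and GGAATG or CATTCC in 4. Of all 35116 RefSeq windows of this length, 1.16% held a CArG box, 7.04% a box with at most 1 mismatch, and 11.9% GGAATG or CATTCC. These matches describe letters in a window and are no evidence of binding.

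The actins came first in the comparison. ACTA2 encodes α-SMA and maps to chromosome 10 of GRCh37 from 90694831 to 90751096 on the minus strand. It was at 179 and 190 CPM with siNTC, at 298 and 258 CPM with siTAZ #1, and at 102 and 110 CPM with siTAZ #2. Both siTAZ #1 libraries were above and both siTAZ #2 libraries below the siNTC libraries, so the 3 groups did not overlap. With siTAZ #1 the log2 fold change was 0.59 (standard error (SE) 0.10, FDR 0.013) and with siTAZ #2 it was -0.80 (SE 0.10, FDR 0.0038) by edgeR's quasi-likelihood test, which correspond to 1.51 and 0.576 of the siNTC level. These values describe a pattern that was known beforehand. The rise with siTAZ #1 kept its direction under all 19 alternatives tried, but it did not pass in the exact test of edgeR on 4 libraries (FDR 0.31), without siNTC replicate 1 (FDR 0.12) and without siNTC replicate 2 (FDR 0.094). Over the alternatives its FDR ranged from 1.3e-05 to 0.31. The fall with siTAZ #2 passed under all 19, with a highest FDR of 0.044.

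ACTG2 encodes γ-smooth muscle actin, the actin of enteric smooth muscle, and maps to chromosome 2 from 74119441 to 74146992. It was at 434 and 456 CPM with siNTC, at 542 and 447 CPM with siTAZ #1, and at 220 and 239 CPM with siTAZ #2. Of the siTAZ #1 libraries, 1 lay within the range of siNTC and 1 above it, whereas both siTAZ #2 libraries were far below all others. The log2 fold change was 0.15 with siTAZ #1 (95% interval -0.12 to 0.43, FDR 0.39) and -0.95 with siTAZ #2 (SE 0.11, FDR 0.0032), the latter passing under all 19 alternatives. ACTG2 shares only 0.0993% of its 50-base stretches with POTEE and its relatives, and no other gene of the count table. Part of the ACTA2 exons is overlapped by FAS on the opposite strand (6.75%), and FAS had log2 fold changes of 0.51 with siTAZ #1 (FDR 0.057) and 0.28 with siTAZ #2 (FDR 0.19). On the opposite strand ACTA2-AS1 overlaps 29.1% of the ACTA2 exons, and an unnamed long noncoding RNA gene on the same strand shares 21.4% of the 50-base stretches of ACTA2. Neither was matched to an entry of the count table. The strand setting of the counting is not given in the sources used here.

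Among the genes for proteins that bind the actin filament, LMOD1 had the largest fold change with siTAZ #2. LMOD1 encodes leiomodin 1, which nucleates actin filaments in smooth muscle cells, and maps to chromosome 1 from 201865584 to 201915676 on the minus strand. It was at 27.6 and 33.3 CPM with siNTC, at 28.2 and 27.6 CPM with siTAZ #1, and at 6.87 and 6.34 CPM with siTAZ #2. The siTAZ #1 libraries lay within the range of the siNTC libraries, and the siTAZ #2 libraries were below all others. LMOD1 fell by 2.20 on the log2 scale with siTAZ #2 (SE 0.16, FDR 0.00084), to 0.217 of the siNTC level, and this call was made under all 19 alternatives. With siTAZ #1 its log2 fold change was -0.13 (95% interval -0.50 to 0.25, FDR 0.60), and it was 0.01 without siNTC replicate 2.

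TAGLN encodes transgelin (SM22α), an early marker of smooth muscle that binds actin, and maps to chromosome 11 from 117070086 to 117078180. It was at 777 and 911 CPM with siNTC, at 887 and 630 CPM with siTAZ #1, and at 466 and 496 CPM with siTAZ #2. The 2 siTAZ #1 libraries lay far apart, 1 within and 1 below the range of siNTC, while both siTAZ #2 libraries were below the other 4. TAGLN fell to 0.570 of the siNTC level with siTAZ #2 (log2 fold change -0.81, SE 0.18, FDR 0.021). The call depended on single libraries, with an FDR of 0.072 when siNTC replicate 1 was left out, 0.13 for siNTC replicate 2, 0.11 for siTAZ #2 replicate 1 and 0.092 for siTAZ #2 replicate 2, and of 1.7e-14 to 0.13 over all alternatives. With siTAZ #1 the log2 fold change was -0.15 (95% interval -0.58 to 0.28, FDR 0.57), but -0.42 without siTAZ #1 replicate 1 (FDR 0.0042) and 0.07 without siTAZ #1 replicate 2 (FDR 0.69). PCSK7 overlaps 34.1% of the TAGLN exon sequence on the opposite strand, and its log2 fold changes were 0.51 with siTAZ #1 (FDR 0.030) and 0.07 with siTAZ #2 (FDR 0.68). An unnamed gene model on the same strand, not matched to the count table, covers 38.1% of the TAGLN exons and shares 65.5% of the 50-base stretches of its transcript, so that the division of reads between them is uncertain.

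CNN1 encodes calponin 1, which binds actin and lowers the ATPase activity of myosin, and maps to chromosome 19 from 11649582 to 11661138. It was at 39.2 and 36.6 CPM with siNTC, at 27.6 and 26.7 CPM with siTAZ #1, and at 25.5 and 23.7 CPM with siTAZ #2. Each siTAZ library was below the lower siNTC library. CNN1 fell to 0.717 of the siNTC level with siTAZ #1 (log2 fold change -0.48, SE 0.12, FDR 0.040) and to 0.650 with siTAZ #2 (-0.62, SE 0.12, FDR 0.014). The call with siTAZ #1 lay close to the threshold and was lost under 11 of the 19 alternatives (FDR 0.019 to 0.59), which included leaving out any 1 library other than siTAZ #1 replicate 1 (FDR 0.20 for siNTC replicate 1, 0.14 for siNTC replicate 2, 0.082 for siTAZ #1 replicate 2, 0.075 for siTAZ #2 replicate 1 and 0.071 for siTAZ #2 replicate 2). The call with siTAZ #2 was lost under 4 alternatives, each of which left out a siNTC or a siTAZ #2 library, with FDRs of 0.093, 0.069, 0.059 and 0.080 without siNTC replicate 1, siNTC replicate 2, siTAZ #2 replicate 1 and siTAZ #2 replicate 2.

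CALD1 encodes caldesmon, an actin-binding inhibitor of the myosin ATPase, and maps to chromosome 7 from 134429003 to 134655480. It was at 663 and 683 CPM with siNTC, at 711 and 916 CPM with siTAZ #1, and at 794 and 753 CPM with siTAZ #2. All 4 siTAZ libraries were above the siNTC libraries, but the log2 fold changes of 0.27 with siTAZ #1 (95% interval -0.04 to 0.59, FDR 0.19) and 0.20 with siTAZ #2 (95% interval -0.12 to 0.52, FDR 0.30) did not pass the test. Leaving out siTAZ #1 replicate 1 gave 0.44 with siTAZ #1 (FDR 0.00081) and 0.20 with siTAZ #2 (FDR 0.047), and leaving out siTAZ #1 replicate 2 also brought the value with siTAZ #2 past the threshold (FDR 0.046). The 2 siTAZ #1 libraries thus differed from each other by more than the groups did.

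The myosin genes were MYL9 and MYH11. MYL9 encodes the smooth muscle regulatory light chain, whose phosphorylation starts contraction, and maps to chromosome 20 from 35169900 to 35179850. It was at 496 and 498 CPM with siNTC, at 477 and 486 CPM with siTAZ #1, and at 220 and 206 CPM with siTAZ #2. The replicates of each group were within 14 CPM of each other, and the siTAZ #2 libraries stood clear of the other 4. MYL9 fell to 0.429 of the siNTC level with siTAZ #2 (log2 fold change -1.22, SE 0.08, FDR 0.00064), under all 19 alternatives. With siTAZ #1 the log2 fold change was -0.05 (95% interval -0.23 to 0.14, FDR 0.70).

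MYH11 encodes the heavy chain of smooth muscle myosin, a marker of fully differentiated smooth muscle, and maps to chromosome 16 from 15796992 to 15950885 on the minus strand. It had the lowest level per length of the 10 genes, at 7.80 and 8.90 CPM with siNTC, 8.26 and 12.2 CPM with siTAZ #1, and 15.5 and 11.4 CPM with siTAZ #2. Both siTAZ #2 libraries were above siNTC, and the siTAZ #1 libraries overlapped with both groups. The log2 fold change of 0.69 with siTAZ #2 (95% interval 0.02 to 1.36, unadjusted p = 0.045 in the quasi-likelihood test) missed the threshold at an FDR of 0.11. It passed under 5 alternatives (FDR 0.013 to 0.41 over the 19), among them leaving out siTAZ #1 replicate 1 (FDR 0.020), siTAZ #1 replicate 2 (FDR 0.021) or the genes from RANGAP1 on and those of X and Y (FDR 0.042). With siTAZ #1 the log2 fold change was 0.30 (95% interval -0.37 to 0.97, FDR 0.49), and it was -0.02 without siTAZ #1 replicate 2. MYH11 was counted at 123 to 398 reads per library, shares 0.668% of its 50-base stretches with MYH9, and is overlapped over 6.0% of its exons by NDE1 on the opposite strand, whose log2 fold change with siTAZ #2 was -0.79 (FDR 0.018).

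The tropomyosins, which run along the actin filament and gate its contact with myosin, differed from each other. TPM1 maps to chromosome 15 from 63334819 to 63364114. It was at 660 and 714 CPM with siNTC, at 479 and 473 CPM with siTAZ #1, and at 489 and 482 CPM with siTAZ #2. All 4 siTAZ libraries were below siNTC and lay within 16 CPM of one another. TPM1 fell to 0.694 of the siNTC level with siTAZ #1 (log2 fold change -0.53, SE 0.08, FDR 0.0079) and to 0.707 with siTAZ #2 (-0.50, SE 0.08, FDR 0.0069). With siTAZ #1 this call did not hold in the exact test (FDR 0.35), without siNTC replicate 1 (FDR 0.061) and without siNTC replicate 2 (FDR 0.084), with FDRs of 1e-06 to 0.35 over the alternatives, and that with siTAZ #2 without siNTC replicate 2 alone (FDR 0.067, from 6.3e-07 to 0.067 over the alternatives).

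TPM2 maps to chromosome 9 from 35681989 to 35690053 on the minus strand. It was at 789 and 889 CPM with siNTC, at 689 and 908 CPM with siTAZ #1, and at 840 and 840 CPM with siTAZ #2. The 3 groups overlapped. The log2 fold change was -0.07 with siTAZ #1 (95% interval -0.43 to 0.28, FDR 0.76) and 0.00 with siTAZ #2 (95% interval -0.35 to 0.36, FDR 0.99), and the sign of both changed with the alternative. Without siTAZ #1 replicate 2, the value with siTAZ #1 was -0.28 (FDR 0.043), and without siTAZ #1 replicate 1 it was 0.11 (FDR 0.40).

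**Figure D2:**
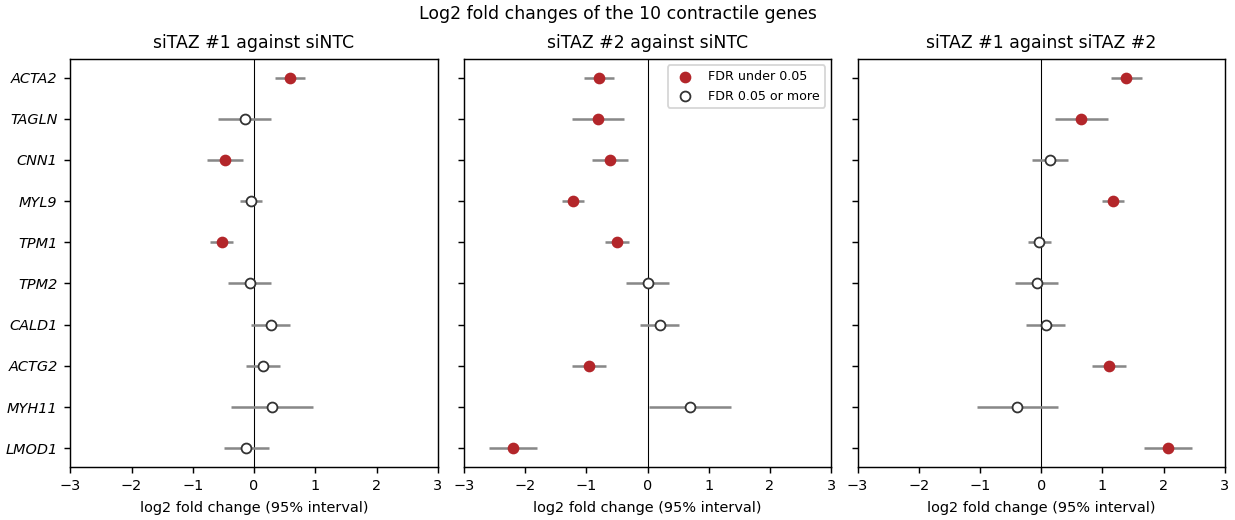
Log2 fold change of each contractile gene (x axis) with its 95% interval for siTAZ #1 against siNTC, siTAZ #2 against siNTC and siTAZ #1 against siTAZ #2, from edgeR's quasi-likelihood test, with filled points where the FDR was under 0.05. With siTAZ #1, 3 points are filled and lie on both sides of 0, with siTAZ #2 all 7 filled points are below 0, and in the direct comparison all 5 are above 0.

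Compared per length of exon, as CPM per kb of all annotated exons of the gene, the order of the levels with siNTC was TPM2 (264), MYL9 (177), TAGLN (129), ACTG2 (117), CALD1 (68.8), TPM1 (46.7), ACTA2 (32.8), CNN1 (13.4), LMOD1 (7.75) and MYH11 (0.471). The libraries of TAGLN and ACTG2 overlapped in this order, while all other neighbours were separated in both siNTC libraries. The gene for α-SMA thus stood 7th of 10 on this scale, and its level per kb was 49.4 with siTAZ #1 and 18.9 with siTAZ #2. MYL9, at 75.9 per kb with siTAZ #2, was then close to TAGLN at 73.5 and CALD1 at 79.1. For some genes all annotated exons far exceed the longest transcript, as for TPM1 with 14700 against 3957 bases. The order and this closeness therefore depend on the length used.

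Whether the other genes followed the opposite signs of ACTA2 was read from the sign of each log2 fold change. Of the other 9 genes, only ACTG2 was higher with siTAZ #1 and lower with siTAZ #2, as were 17.4% of all genes tested. By the quasi-likelihood test with the threshold applied to both siRNAs, 0.825% of all genes tested had this pair of signs. Of the other 9 genes, 0 had it, and also 0 at an unadjusted p under 0.05. In edgeR's exact test this could not be decided, since no contractile gene, ACTA2 included, was called with siTAZ #1. The number of the other 9 with the signs of ACTA2 was 2 with an offset for GC content and without siNTC replicate 2, siTAZ #1 replicate 1 or siTAZ #1 replicate 2, and 1 under the remaining alternatives. TAGLN, CNN1, MYL9, TPM1 and LMOD1 were lower with both, CALD1 and MYH11 were higher with both, and TPM2 was lower with siTAZ #1 and higher with siTAZ #2, although its values were close to 0 and most of these values did not pass the test. Both comparisons use the same siNTC libraries, so that these signs are not independent of each other.

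**Figure D3:**
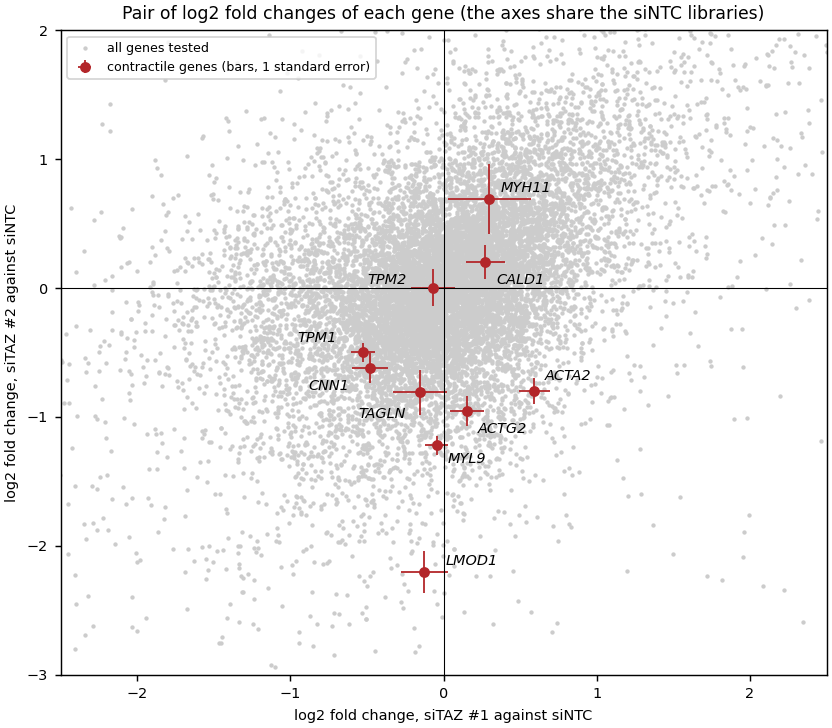
Log2 fold change of every gene tested (grey) and of the 10 contractile genes (red, bars of 1 standard error) with siTAZ #1 (x axis) and with siTAZ #2 (y axis), each against the same siNTC libraries; 384 of the 14053 genes lie outside the axes. ACTA2 and ACTG2 are the contractile genes in the lower right quadrant, above 0 with siTAZ #1 and below 0 with siTAZ #2.

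By the distance between pairs of log2 fold changes, ACTG2 was the nearest of the other 9 genes to ACTA2, at a distance of 0.47 on the log2 scale and at rank 534 among 14052 genes. TAGLN and MYL9 followed at ranks 1926 and 2079, and LMOD1 was farthest, at rank 10221 and a distance of 1.58. The 5 nearest genes overall were PTAFR, SLC22A15, CASC5, POLQ and LIN52, at distances of 0.03 to 0.05. Of these, POLQ, a DNA polymerase that repairs double-strand breaks, was the one past the threshold with both siRNAs. Its log2 fold changes were 0.58 with siTAZ #1 (FDR 0.029 in the quasi-likelihood test) and -0.84 with siTAZ #2 (FDR 0.0072). The 5 genes were picked by these same fold changes, so that the values are a description and no independent test. POLQ was at 22.3 and 23.3 CPM with siNTC, 32.5 and 35.7 CPM with siTAZ #1 and 12.9 and 12.6 CPM with siTAZ #2. Its call with siTAZ #1 was lost under 9 of the 19 alternatives (highest FDR 0.49). PTAFR and SLC22A15 had at most 71 counts in any library.

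A direct comparison of siTAZ #1 with siTAZ #2, which does not use the siNTC libraries for its estimate, found 4 of the 9 genes other than ACTA2 higher with siTAZ #1 and 0 lower by the quasi-likelihood test, where 15.2% of all genes tested were higher, 13.4% lower and 28.6% either. ACTA2, at a log2 difference of 1.39 (SE 0.10), also passed, but its opposite signs were known beforehand and its difference is given as a description. In the fit that left out the genes from RANGAP1 on and those of X and Y, 38% of all genes tested and 5 of the 10 contractile genes were called. None of the 10 genes was lower with siTAZ #1 at an unadjusted p under 0.05 either, nor in edgeR's exact test or DESeq2. LMOD1 differed by 2.08 on the log2 scale (SE 0.16, FDR 0.0010), MYL9 by 1.18 (0.07, FDR 0.00072) and ACTG2 by 1.11 (0.11, FDR 0.0021), and these 3 calls were made under all 19 alternatives. TAGLN differed by 0.66 (SE 0.18, FDR 0.039), which was lost under 7 alternatives (FDR 1.1e-06 to 0.26), among them without siNTC replicate 1 (FDR 0.078), siNTC replicate 2 (FDR 0.078), siTAZ #2 replicate 1 (FDR 0.17) or siTAZ #2 replicate 2 (FDR 0.14).

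The other 5 genes gave no call between the siRNAs. The log2 difference of TPM1 was -0.03 with a 95% interval of -0.22 to 0.16, and that of CNN1 was 0.14 with an interval of -0.15 to 0.43. CALD1 and TPM2 had differences of 0.07 (-0.25 to 0.39) and -0.07 (-0.43 to 0.28), and without siTAZ #1 replicate 1 the CALD1 difference was 0.25 (FDR 0.040), while without siTAZ #1 replicate 2 the TPM2 difference was -0.28 (FDR 0.033). The interval of MYH11 was wide, from -1.06 to 0.27 around -0.39. Of the 10 genes, 7 had both siTAZ #1 libraries outside the range of the siTAZ #2 libraries, as had 65.6% of all genes tested.

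**Figure D4:**
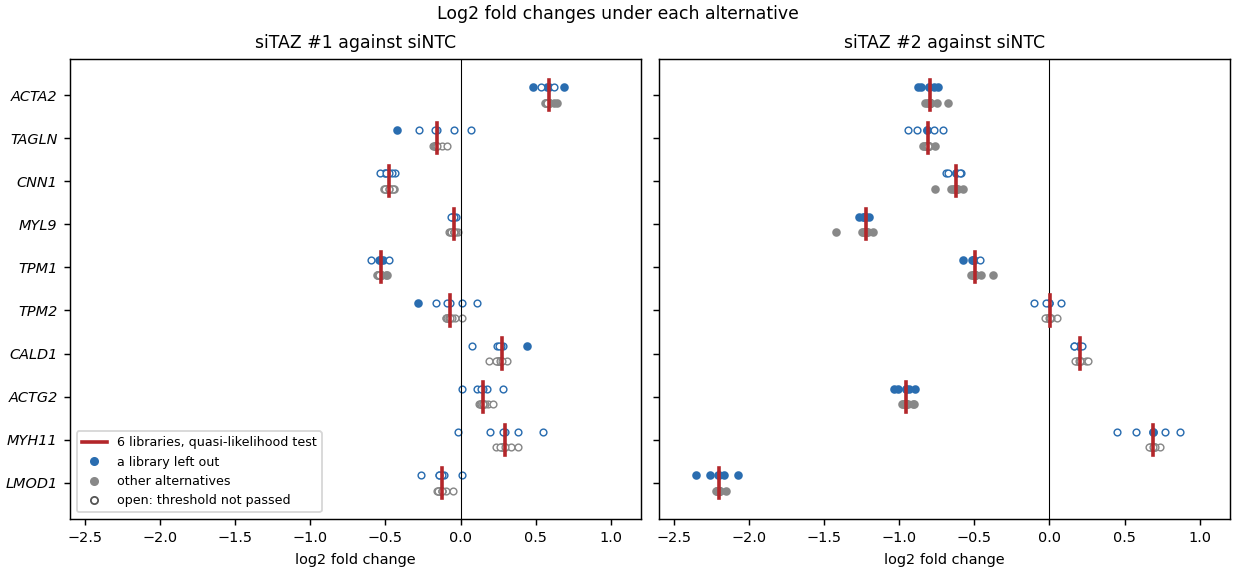
Log2 fold change of each contractile gene (x axis) under the 19 alternatives, with the value from 6 libraries as a red line, fits without 1 library in blue, other alternatives in grey, and open points where the threshold was not passed. ACTA2 stays above 0 with siTAZ #1, from 0.48 to 0.69, and below 0 with siTAZ #2, while TAGLN, TPM2, MYH11 and LMOD1 cross 0 with siTAZ #1.

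Further genes of smooth muscle and stress fibres showed calls in both directions. Of 20 such genes, 19 were tested, and KCNMB1, a channel subunit of smooth muscle, had at most 4 counts in a library. With siTAZ #1, 3 rose and 4 fell, and with siTAZ #2, 5 rose and 4 fell, against the shares of all genes given above. The median log2 fold change was -0.0032 with siTAZ #1 and 0.02 with siTAZ #2. MYLK, the kinase that phosphorylates the regulatory light chain, was at 1278 and 1362 CPM with siNTC, 1277 and 1255 CPM with siTAZ #1, and 263 and 254 CPM with siTAZ #2. The siTAZ #1 libraries were just under the siNTC range and the siTAZ #2 libraries far below it. MYLK fell with siTAZ #2 by 2.35 on the log2 scale (SE 0.08, FDR 0.00031), while its log2 fold change with siTAZ #1 was -0.06 (FDR 0.62) and the direct difference was 2.29 (FDR 0.00033). VCL, the focal adhesion protein vinculin, was at 798 and 860 CPM with siNTC, 863 and 866 CPM with siTAZ #1, and 319 and 302 CPM with siTAZ #2, a fall of 1.42 on the log2 scale in the last group (FDR 0.00063). CSRP1, a LIM protein of the actin cytoskeleton, had the reverse order, at 627 and 606 CPM with siNTC, 162 and 138 CPM with siTAZ #1, and 525 and 518 CPM with siTAZ #2. It fell by 2.04 on the log2 scale with siTAZ #1 (FDR 0.00062), while with siTAZ #2 the value was -0.24 (FDR 0.12).

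The intermediate filament gene SYNM rose with both siRNAs, from 11.0 and 12.7 CPM with siNTC to 41.4 and 51.4 CPM with siTAZ #1 and 36.7 and 42.6 CPM with siTAZ #2 (log2 fold changes 1.97 and 1.74, FDR 0.0019 with each). LPP, a focal adhesion protein, rose too, by 1.65 (FDR 0.00082) and 0.88 (FDR 0.0023) on the log2 scale. SYNPO2, which encodes the actin-bundling protein myopodin, fell with both, by 1.33 (FDR 0.035) and 2.14 (FDR 0.0069). FLNC, filamin C, fell by 0.73 with siTAZ #1 (FDR 0.0080). DES, desmin, rose by 0.99 with siTAZ #2 (FDR 0.039) from 34 to 46 counts in the siNTC libraries. The calls of CSRP1, SYNM, LPP, MYLK and VCL were made under all 19 alternatives, while those of FLNC, DES and, with siTAZ #1, SYNPO2 were lost when either siNTC library was left out (highest FDR over the alternatives 0.14, 0.17 and 0.18), and that of SYNPO2 with siTAZ #2 was lost without siNTC replicate 2 or siTAZ #2 replicate 1 (highest FDR 0.054). FLNA and FHL1 are among the genes whose counts are nearly missing in siTAZ #1 replicate 2. Their standard errors of 1.19 to 1.69 on the log2 scale, from the joint fit, allow no reading of the test in either comparison. For both genes the siNTC and siTAZ #2 libraries did not have this gap, and both siTAZ #2 libraries were below siNTC. FLNA was at 3305 and 3588 CPM with siNTC and at 2020 and 2022 CPM with siTAZ #2. FHL1 was at 91.7 and 76.9 CPM against 59.1 and 60.2 CPM, and 71.4% of all genes tested had such separation with siTAZ #2.

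The non-muscle relatives of the 10 genes, which most cells express, were 15 genes. With siTAZ #1, 1 rose and 3 fell, where 20.6% of all genes tested were called, and with siTAZ #2, 0 rose and 3 fell by the quasi-likelihood test, where 28.5% were called. Between the siRNAs, 6 were higher with siTAZ #1 and 2 lower, against 28.6% of all genes tested in either direction. Against siNTC they had median log2 fold changes of -0.04 and -0.11. With siTAZ #2, 0 were higher at an unadjusted p under 0.05 or in DESeq2, and 1 was higher in edgeR's exact test. TPM3 fell with both siRNAs, by 0.32 (FDR 0.049) and 0.70 (FDR 0.0034) on the log2 scale. ACTN4 and MYH9, the non-muscle α-actinin and myosin heavy chain, fell by 0.57 (FDR 0.0064) and 0.48 (FDR 0.031) with siTAZ #1, and TMOD3, which caps actin filaments, rose by 0.64 (FDR 0.0065). TPM4 and CNN2 fell by 0.57 (FDR 0.0078) and 0.44 (FDR 0.0079) with siTAZ #2. All of these calls but that of TPM3 with siTAZ #2 were lost when either siNTC library was left out, with highest FDRs over the alternatives of 0.68 for TPM3, 0.28 for ACTN4, 0.45 for MYH9 and 0.22 for TMOD3 with siTAZ #1, and of 0.071 for TPM4 and 0.073 for CNN2 with siTAZ #2.

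Of 22 regulators of contractile genes and of myosin, 2 rose and 4 fell with siTAZ #1, where 20.6% of all genes tested were called, and 3 rose and 8 fell with siTAZ #2, where 14.1% of all genes tested were higher and 14.4% lower. Their median log2 fold changes were -0.09 and -0.17. MYOCD, which encodes myocardin, the SRF coactivator of smooth muscle, was at 19.5 and 18 CPM with siNTC, 6.0 and 8.28 CPM with siTAZ #1, and 25.1 and 19.3 CPM with siTAZ #2. It fell by 1.39 on the log2 scale with siTAZ #1 (SE 0.23, FDR 0.012), in the libraries where ACTA2 was highest, and its log2 fold change was 0.25 with siTAZ #2 (FDR 0.46). MKL2, which encodes MRTF-B, rose by 0.73 with siTAZ #1 (FDR 0.032). SRF itself, which is outside the rule for named genes and is given for its role at the CArG box, was at 98.3 and 112 CPM with siNTC, 116 and 130 CPM with siTAZ #1, and 85.2 and 85.2 CPM with siTAZ #2. It passed the threshold against siNTC with neither siRNA (log2 fold changes 0.23 and -0.30, FDR 0.17 and 0.078), and it was higher with siTAZ #1 than with siTAZ #2 by 0.53 on the log2 scale (SE 0.10, FDR 0.014). This difference of SRF was not followed under the alternatives. MKL1, which encodes MRTF-A and is also outside the rule, had log2 fold changes of -0.37 and -0.11 against siNTC (FDR 0.14 and 0.62). Between the siRNAs its value was -0.26 (FDR 0.25).

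KLF4, which encodes a factor that represses smooth muscle genes, was at 23.0 and 29.4 CPM with siNTC, 22.1 and 19.8 CPM with siTAZ #1, and 1.54 and 3.50 CPM with siTAZ #2. It fell by 3.39 on the log2 scale with siTAZ #2 (SE 0.40, FDR 0.0031), and GATA6, another transcription factor of smooth muscle, by 3.12 (FDR 0.0088) from 25 and 42 counts with siNTC to 5 and 4. Of the kinases, ROCK2 fell by 0.88 with siTAZ #1 (FDR 0.014), and PRKG1, which mediates relaxation by cyclic GMP, fell by 0.97 with siTAZ #2 (FDR 0.0065). LIMK2, which inactivates cofilin, rose with both, by 0.54 (FDR 0.024) and 1.01 (FDR 0.0026), and LIMK1 and the small GTPase gene RHOB rose with siTAZ #2 by 0.45 (FDR 0.0088) and 0.76 (FDR 0.0017). CFL1, cofilin, fell by 0.68 with siTAZ #1 (FDR 0.0038). The calls of KLF4, RHOB and, with siTAZ #2, LIMK2 were made under all 19 alternatives. Those of MYOCD, MKL2, ROCK2, CFL1 and LIMK2 with siTAZ #1 and of LIMK1 with siTAZ #2 were lost when either siNTC library was left out (highest FDR over the alternatives 0.086, 0.34, 0.096, 0.15, 0.54 and 0.087), and those of GATA6 and PRKG1 without siNTC replicate 2 (highest FDR 0.057 and 0.052), that of GATA6 also when either siTAZ #2 library was left out. ELK1 is among the genes with nearly missing counts in siTAZ #1 replicate 2.

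**Figure D5:**
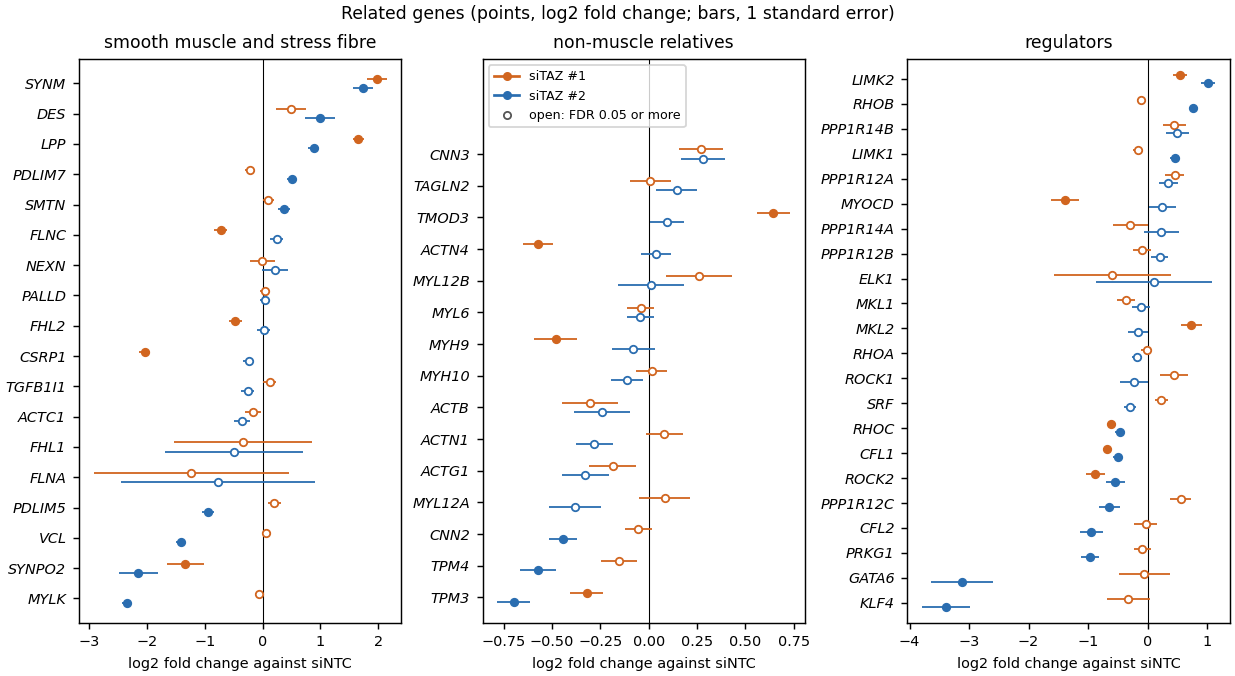
Log2 fold change against siNTC (x axis) with siTAZ #1 (orange) and siTAZ #2 (blue) for the tested genes of the 3 lists of related genes except 1 that is not shown, with bars of 1 standard error and open points where the FDR was 0.05 or more. MYLK, VCL, KLF4 and GATA6 lie far below 0 with siTAZ #2 and near 0 with siTAZ #1, CSRP1 and MYOCD lie below 0 with siTAZ #1 and near 0 with siTAZ #2, and the wide bars of FLNA, FHL1 and ELK1 come from their nearly missing counts in 1 siTAZ #1 library.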

How the data were processed

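The authors read the RNA on an Ion Proton, used TMAP for alignment to hg19 and HTSeq (0.6.1 in the submitters' processing notes) for counting. The deposited values are raw counts per gene symbol, not normalized. Different transcripts of the same gene, as of TPM1, TPM2 or CALD1, therefore cannot be told apart. Left out were 13 entries whose symbols had turned into dates (0.0458% to 0.0506% of a library's counts). Tests were run in R 4.3.3 by quasi-likelihood testing (edgeR 4.0.16), in 1 fit of all 6 libraries (filterByExpr by group, TMM, Benjamini-Hochberg over 14053 genes, FDR 0.05). Standard errors are the size of the log2 fold change over the square root of F. Alternatives were DESeq2 1.42.0, edgeR's exact test, fits of 4 libraries, other scalings, no filter, a replicate block, offsets for GC content and length (known for 95.5% of genes tested), an FDR of 0.1, leaving out each library or the genes with near-missing counts, and, added after seeing the data, a crossed block. The FDR of 0.1 was applied to the reported fit itself, so this alternative could neither lose a call nor change a sign. The tests were tried on simulated counts whose spread was taken from the siNTC and siTAZ #2 libraries. The spread between the siTAZ #1 libraries was not simulated. Replicates differed by more than sampling noise (mean chi-square per gene 5.38 to 23.5). Positions came from GENCODE v44lift37 on GRCh37 and promoters from RefSeq. The contractile genes, the related lists and the markers were chosen with earlier results of these data known. Genes named were the 10, WWTR1, up to 3 called genes at each end of each related list with each siRNA, and the 5 genes nearest to ACTA2; 1 called gene of the smooth muscle and stress fibre list is counted but not reported here.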

Additional observations from a re-analysis of the deposited data

Results flagged for a closer look

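For 4 of the 9 contractile genes other than ACTA2 the level differed between the 2 siRNAs when this difference itself was tested (edgeR's quasi-likelihood test). For each, both siTAZ #1 libraries were higher than both siTAZ #2 libraries. Of all genes tested 28.6% differed, or 38% in the fit that left out the genes from RANGAP1 on and those of X and Y. The log2 difference was 2.08 for LMOD1 (FDR 0.0010), 1.18 for MYL9 (FDR 0.00072), 1.11 for ACTG2 (FDR 0.0021) and 0.66 for TAGLN (FDR 0.039). The difference of ACTA2 was 1.39, which is a description, since its opposite signs were known when the genes were chosen. WWTR1 itself was at 0.208 of the siNTC level with siTAZ #1 and at 0.339 with siTAZ #2. Whether the depth of knockdown or the sequence of each siRNA had a part in these differences was not tested. No group held enough libraries to test a single library as an outlier.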

How the results depend on the processing

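Of the comparisons of the 10 genes under the 19 alternatives, 502 kept their direction and their side of the threshold, 34 lost a call, 12 gained one and 22 changed sign, none of them a called value. These counts include the FDR of 0.1 on the reported fit, which could neither lose a call nor change a sign. The numbers of genes called with siTAZ #1, with siTAZ #2 and between the siRNAs were 2889, 4004 and 4020. The exact test on 4 libraries gave 911, 6422 and 1373, with 0 of the 10 contractile genes with siTAZ #1 and an ACTA2 value of 0.58 (FDR 0.31), and a fit of 4 libraries gave 6097 with siTAZ #2. Leaving out 1 library gave 556 to 5100, 1328 to 6042 and 1797 to 5659 genes, with 0 to 5 (3 in all libraries), 4 to 9 (7) and 4 to 6 (5) of the contractile genes. It left ACTA2 at 0.48 to 0.69 with siTAZ #1, where the call was lost when either siNTC library was left out, and 1 to 2 other genes with its signs. The single library that then stands for a group is taken to vary as the other groups do. Values that changed sign without 1 library ranged, with siTAZ #1, from -0.42 to 0.072 for TAGLN, -0.27 to 0.0081 for LMOD1, -0.016 to 0.55 for MYH11 and -0.28 to 0.11 for TPM2, with siTAZ #2 from -0.10 to 0.074 for TPM2, and between the siRNAs from -0.12 to 0.25 for CALD1 and -0.28 to 0.12 for TPM2.

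TPM2 with siTAZ #2, at 0.00, was also -0.0073 in DESeq2, -0.0073 with RLE scaling, -0.00096 in the exact test and in the fit of 4 libraries, -0.020 without a filter, -0.028 with an offset for length and -5.2e-06 with a crossed replicate block. The offset for GC content gave TPM2 values of 0.012, -0.012 and 0.024 in the 3 comparisons, -0.064 for CALD1 between the siRNAs, and 2 other genes with the signs of ACTA2. The cause of these changes was not tested. The replicate numbers did not pair the libraries (correlations of the replicate differences -0.0062, 0.01 and -0.18), and a replicate block gave 1691, 2749 and 2869 genes and 2, 6 and 4 of the contractile genes, losing CNN1 with siTAZ #1 and TAGLN with siTAZ #2 and between the siRNAs. With the pairing crossed, the numbers were 2612, 3750 and 3843 genes and 2, 7 and 5 contractile genes. In the related lists, 50 of 171 counts moved by over 1.5 times. Called with siTAZ #1, with siTAZ #2 and between the siRNAs were 3 to 9, 5 to 16 and 5 to 13 smooth muscle and stress fibre genes (7, 9 and 8 in the fit reported), 0 to 8, 1 to 8 and 0 to 10 non-muscle relatives (4, 3 and 8), and 0 to 12, 3 to 14 and 5 to 13 regulators (6, 11 and 11).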
